A study of Mus musculus with 7 samples.

Results

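The 52 genes described here encode proteins that repair DNA or signal its damage. They were taken by name from the GENCODE M21 annotation of mm10, and each matched exactly 1 of the 55487 gene identifiers in the deposited counts. The rule names the genes and uses no measured value, although the list was drawn up with earlier results of these data known. RNA-seq was carried out on whole ovaries of C57BL/6J mice dissected in diestrus on postnatal day 60, and the question was whether an ancestral exposure to anti-Müllerian hormone (AMH) changed ovarian gene expression. The 3 CNTR mice were born to dams injected with PBS, and the 4 PAMH F3 mice descend from F0 dams injected daily with human recombinant AMH (0.12 mg/kg) on embryonic days E16.5 through E18.5. The F2 and F3 lineages received no further AMH. The labels give the injections as subcutaneous and the methods as intraperitoneal. CNTR mice are the direct offspring of injected dams whereas PAMH F3 mice come after further rounds of breeding, so that exposure and generation cannot be told apart. Each library came from its own mouse.

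Cells answer a break or a stalled replication fork through the kinases ATM and ATR, which act on checkpoint kinases and on p53, the transcription factor that Mdm2 marks for degradation. Breaks are then rejoined either from an intact copy of the sequence, by homologous recombination, or directly, by end joining, while damaged or mispaired bases are removed by excision pathways. In the ovary these proteins work both in oocytes, whose reserve can fall when damage persists, and in dividing granulosa cells, which copy their DNA as follicles grow.

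Each library held between 32158174 and 35485021 counts over all genes. Levels are given as CPM, the unit in which edgeR expresses a gene's counts relative to library size, here with TMM factors. Of the marker lists, the oocyte genes summed to between 303 and 489 CPM per library and the ovary genes, which mark granulosa and theca cells, to between 2768 and 4441 CPM, and no gene of either list was at 0 in all libraries. Epithelial genes of the oviduct summed to between 2680 and 6605 CPM and adipocyte genes to between 99.8 and 769 CPM, with overlapping ranges in the CNTR and PAMH F3 groups. In edgeR with surrogate variables all 5 adipocyte and all 5 erythroid genes were lower in PAMH F3, and the other marker lists held genes of both directions. Of the genes in the 6 marker lists, edgeR and DESeq2 with surrogate variables called none. An unadjusted p under 0.05 in edgeR was reached by 2 ovary genes and 1 leukocyte gene. These were all lower in PAMH F3, a direction with an unadjusted p under 0.05 in 3.74% of all genes. CNTR replicate 2 stood apart from the other libraries in that its levels rose with the GC content of a gene's transcripts, by 0.31 on the log2 scale per 10% GC against between -0.13 and 0.05 in the other 6 libraries. In bulk tissue, fewer cells of a type and less RNA per cell cannot be told apart.

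All 52 genes were transcribed in every ovary and all passed edgeR's filter on low counts, with between 156 and 6257 counts of a gene in a library. Their mean levels ran from 6.75 CPM for Bard1 to 172 CPM for Parp1, with a median of 33.2 CPM against 19.6 CPM over the 18779 genes tested. Most were of moderate level. The mean was under 10 CPM for 5 genes, between 10 and 50 CPM for 32, between 50 and 100 CPM for 12 and at least 100 CPM for 3, namely Parp1, Trp53bp1 and Lig3.

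**Figure D1:**
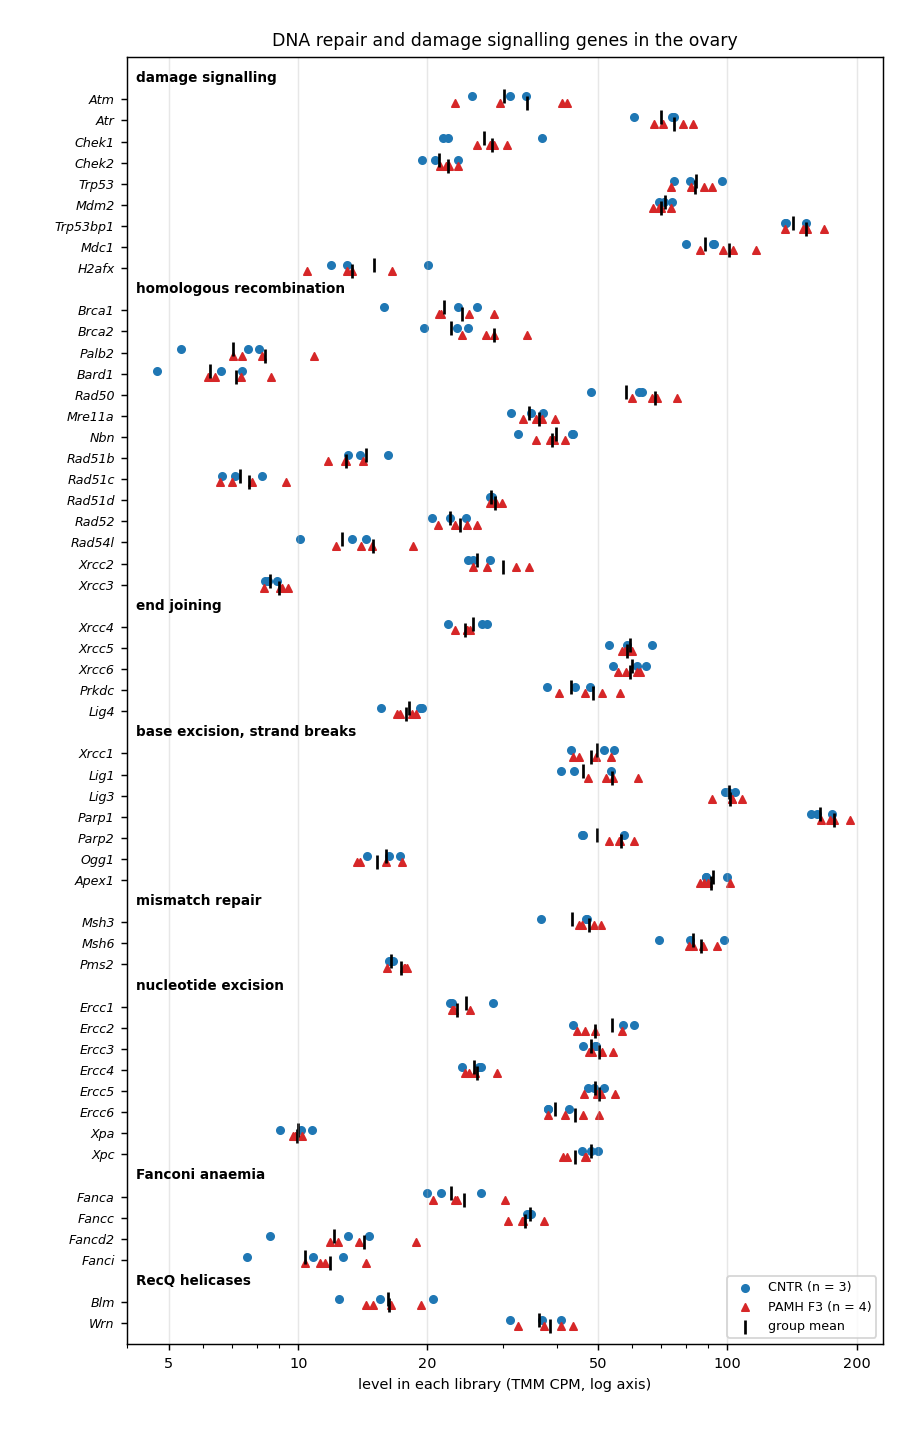
Level of each of the 52 genes in each library, in TMM CPM on a log axis, grouped by pathway. Circles are the 3 CNTR libraries, triangles the 4 PAMH F3 libraries and bars the group means; levels run from 4.68 CPM for Bard1 to 193 CPM for Parp1, and for no gene are the groups fully separated.

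Promoters were read for the genes that RefSeq lists with a window from 250 bases before to 50 bases after the start site in the GRCm38.p6 build, which holds 42 of the 52. H2afx, Rad50, Nbn, Rad51d, Xrcc2, Prkdc, Ercc3, Xpc, Fancd2 and Wrn were not matched. Each was searched on both strands for the 4 words TTTCCCGC, TTTCGCGC, TTTGCCGC and TTTGGCGC, which belong to the site of E2F factors, regulators of genes used in S phase. A word was found for 9 of the 42 genes (21.4%), against 2.60% of the 27025 genes with a window. A gene was counted once if any of its windows held a word, and some genes have 2 or 3 windows. The 9 genes are Chek2, Mdc1, Brca2, Bard1, Rad51c, Xrcc6, Lig1, Msh3 and Msh6. CNTR replicate 2 was the lowest library for 8 of these 9 and PAMH F3 replicate 4 the highest for 6. Among the 33 genes without a word, the same libraries were lowest for 13 and highest for 18. The ratio of the highest to the lowest library had a median of 1.42 over the 9 genes and of 1.26 over the 33. These words are a description of the sequence, and binding was not measured. A second cell-cycle word, TTTGAA, was found for 3 of the 42 genes (7.14%) and for 20.2% of all genes with a window. The word CCAAT was in 25 of 42 (59.5%) and in 41.1% of all.

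The windows of 4 of these genes are shown because each holds an E2F word and because CNTR replicate 2 was their lowest and PAMH F3 replicate 4 their highest library, with a ratio above 1.4. They run 5′ to 3′ on the gene's strand, with the E2F word in capitals. Mdc1 is at chr17:35841248-35841547 (plus strand), Brca2 at chr5:150522371-150522670 (plus strand), Bard1 at chr1:71102923-71103222 (minus strand) and Lig1 at chr7:13278576-13278875 (plus strand). The word starts 16 bases before the start site in Mdc1, 168 before it in Brca2, 209 before it in Bard1 and 26 after it in Lig1. The Lig1 window is the 1 of its 3 windows that holds a word.
Mdc1: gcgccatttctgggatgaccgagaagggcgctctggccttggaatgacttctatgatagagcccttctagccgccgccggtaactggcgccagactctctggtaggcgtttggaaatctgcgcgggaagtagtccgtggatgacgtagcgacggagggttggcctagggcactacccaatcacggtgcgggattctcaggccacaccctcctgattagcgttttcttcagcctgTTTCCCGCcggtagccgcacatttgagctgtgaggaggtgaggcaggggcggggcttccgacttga
Brca2: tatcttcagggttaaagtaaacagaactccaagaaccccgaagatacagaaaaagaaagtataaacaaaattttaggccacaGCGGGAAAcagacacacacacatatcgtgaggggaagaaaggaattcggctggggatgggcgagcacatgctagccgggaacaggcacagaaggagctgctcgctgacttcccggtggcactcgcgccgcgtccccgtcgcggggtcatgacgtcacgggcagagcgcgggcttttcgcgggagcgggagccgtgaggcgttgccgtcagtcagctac
Bard1: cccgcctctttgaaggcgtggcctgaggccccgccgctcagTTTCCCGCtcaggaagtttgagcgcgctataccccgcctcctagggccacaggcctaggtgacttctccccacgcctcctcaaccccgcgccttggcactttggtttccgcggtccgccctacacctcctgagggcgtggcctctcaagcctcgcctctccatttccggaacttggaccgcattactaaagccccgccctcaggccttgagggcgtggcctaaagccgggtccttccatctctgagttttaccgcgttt
Lig1: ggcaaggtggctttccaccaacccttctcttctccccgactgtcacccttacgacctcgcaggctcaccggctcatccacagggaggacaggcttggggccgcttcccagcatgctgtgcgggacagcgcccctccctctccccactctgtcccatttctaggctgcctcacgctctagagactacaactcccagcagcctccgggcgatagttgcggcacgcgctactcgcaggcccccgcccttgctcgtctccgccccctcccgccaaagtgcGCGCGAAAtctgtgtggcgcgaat

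At an adjusted p of at most 0.05, edgeR's quasi-likelihood F test with 2 surrogate variables called none of the 52 genes, and 0% of the 18779 genes tested. Surrogate variables are covariates that svaseq derives from the counts for variation between libraries that the groups do not account for. The smallest adjusted p among the 52 genes was 0.60. Of the 52, 2 had an unadjusted p under 0.05, Brca2 and Rad50, whereas 7.63% of all genes were under it. Both were higher in PAMH F3, a direction with an unadjusted p under 0.05 in 3.89% of all genes. The Wald test of DESeq2, given these covariates, called 0 of the 52 and 0.583% of 17333 genes, and without covariates it called 0 of the 52 and 0.0178% of 33785 genes. It left 1 of the 52, Brca2, under an unadjusted p of 0.05 in either case. Without the covariates 842 of 33785 genes (2.49%) were under it, and with them 1091 genes were. The 17333 genes leave out those without an adjusted p, so no share is given for the 1091. The PAMH F3 libraries lay all above or all below the CNTR libraries for 0 of the 52 genes, against 4.25% of all genes tested. Leaving out CNTR replicate 1 brought 12 of the 52 under an unadjusted p of 0.05, at 17.1% of all genes, and leaving out PAMH F3 replicate 2 or 4 brought 0, at 4.28% and 6.47% of all genes.

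The intervals around the differences were narrow in the fit with surrogate variables. That fit left 3 residual degrees of freedom, the libraries less the fitted terms. Its covariates were derived from the same libraries, and the intervals do not count the uncertainty in deriving them. The 95% interval of edgeR's log2 fold change lay within 1.5-fold in either direction for all 52 genes, which held for 65.6% of all genes tested. The lowest bound was a fold of 0.751 and the highest a fold of 1.46. Without surrogate variables the interval lay within 1.5-fold for 44 of the 52 genes (84.6%) and for 59.7% of all genes. The median SE of the log2 fold change was 0.080 over the 52 genes and 0.12 over all genes tested. The fold changes themselves ran from -0.14 for Rad51b to 0.26 for Brca2 on the log2 scale, with a median of 0.04 against 0.01 over all genes. Of the 52, 35 were higher in PAMH F3 and 17 lower (67.3% higher, against 52.2% of all genes). Without surrogate variables 35 were also higher, with a median of 0.07. With the surrogate variables, 33 were higher when CNTR replicate 2 was left out, and 31 when PAMH F3 replicate 4 was. Leaving out any other single library gave between 31, without CNTR replicate 3, and 41, without CNTR replicate 1. CNTR replicate 2 and PAMH F3 replicate 4 were the lowest and the highest library for most of the 52 genes. Leaving out both, with no surrogate variables, gave 20 higher and a median of -0.03. That pair was chosen after seeing the data, for its place at the ends of the range. A drop was therefore built in, and this setting cannot decide whether the groups differ. The same limit applies where the pair is left out for single genes below.

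**Figure D2:**
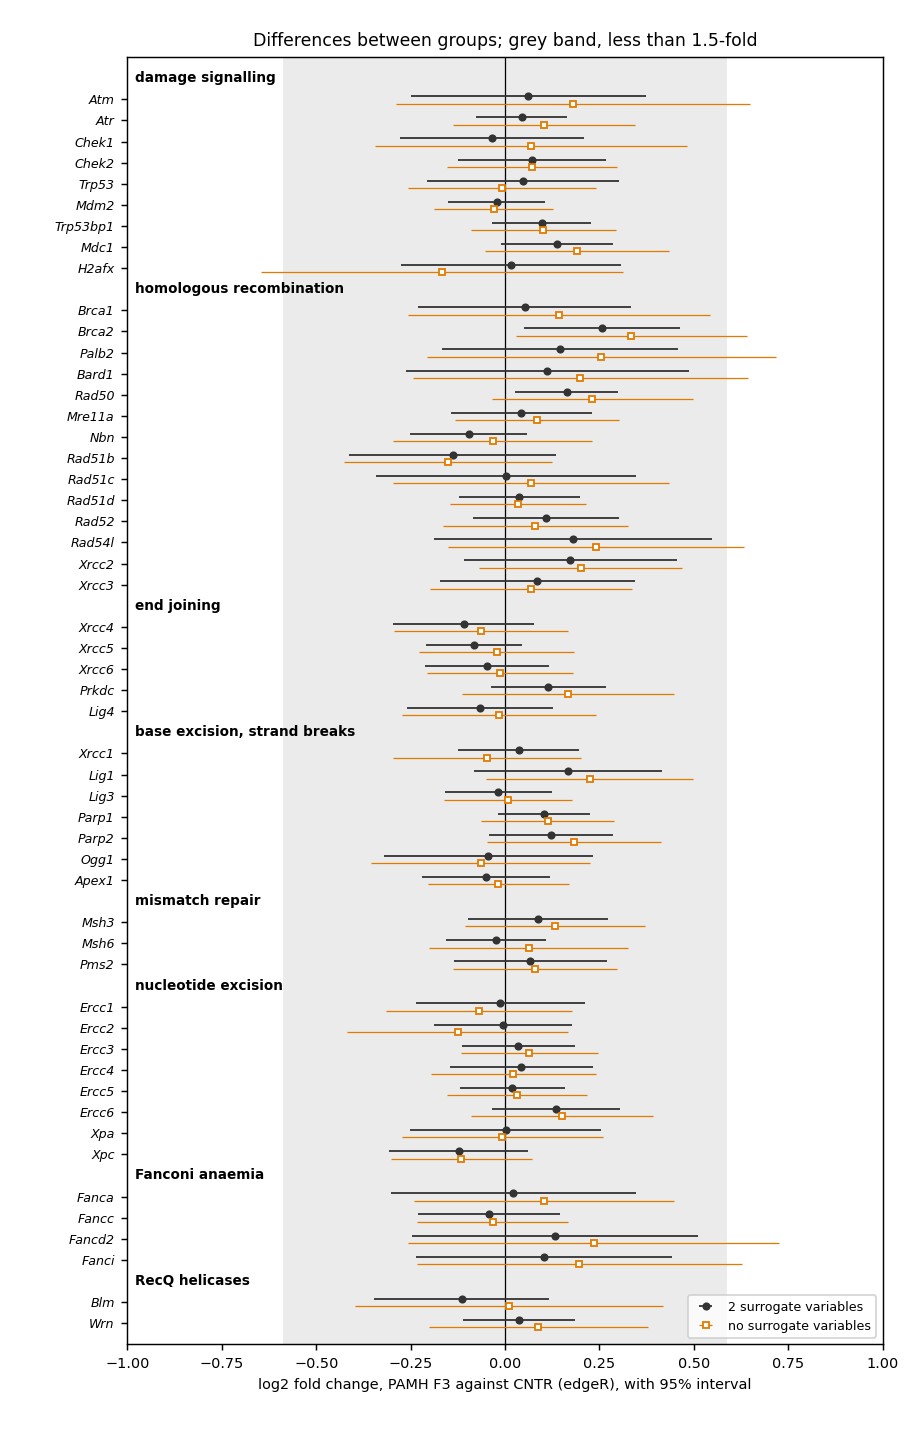
Log2 fold change of PAMH F3 against CNTR for each gene with its 95% interval, from edgeR with 2 surrogate variables (filled) and with none (open); the grey band marks differences of less than 1.5-fold. All 52 filled intervals lie inside the band and 44 of the 52 open ones do.

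The libraries of the groups overlapped for all 9 signalling genes. Of these, 7 were higher in PAMH F3, against 52.2% of all genes tested, and the median log2 fold change was 0.05. Atr, the kinase of stalled forks, had 74.4, 60.4 and 75.2 CPM in CNTR replicates 1 to 3 and 78.8, 70.7, 67.4 and 83.2 CPM in PAMH F3 replicates 1 to 4. Atm, the kinase of double-strand breaks, had 31.1, 25.4 and 33.9 CPM in CNTR and 42.3, 29.5, 23.2 and 41.2 CPM in PAMH F3. PAMH F3 replicates 1 and 4 were the highest libraries for Atm and PAMH F3 replicate 3 the lowest, so that the spread lay within the PAMH F3 group. Chek1, the checkpoint kinase downstream of ATR, had 37.0 CPM in CNTR replicate 1 but 21.8 and 22.3 CPM in the other CNTR libraries, with all 4 PAMH F3 libraries in between at 26.2 to 30.6 CPM. Chek2, which acts downstream of ATM, stayed between 19.4 and 23.6 CPM.

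Trp53, which encodes p53, had 75.2, 97.1 and 81.9 CPM in CNTR and 92.1, 73.8, 82.0 and 88.3 CPM in PAMH F3. Mdm2, itself a p53 target and the ligase that limits p53, had 69.4, 71.2 and 74.2 CPM in CNTR and 70.0, 67.0, 69.2 and 73.9 CPM in PAMH F3. The Mdm2 levels were among the steadiest of the 52, with a ratio of 1.11 between the highest and the lowest library. H2afx, the histone variant phosphorylated around breaks, had 11.9, 20.1 and 13.0 CPM in CNTR and 10.5, 13.0, 16.54 and 13.3 CPM in PAMH F3, and CNTR replicate 2 alone set the top of its range. The break-site scaffolds were the highest of the group in CPM, although per kilobase of all exons joined Trp53 was the highest, at 20.9. Trp53bp1, which favours end joining, averaged 142 ± 8.81 CPM over the 3 CNTR libraries and 152 ± 13.1 CPM over the 4 PAMH F3 libraries (mean ± SD). The difference was 0.10 on the log2 scale (SE 0.06), with an edgeR adjusted p of 0.73. Mdc1, which binds the phosphorylated histone, had between 79.9 and 93.3 CPM in CNTR and between 86.3 and 117 CPM in PAMH F3.

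Of 23 other genes known as p53 targets, edgeR called none and DESeq2 with surrogate variables called 1, 8 were higher and 15 lower, and 3 were lower with an unadjusted p under 0.05 and 0 higher, against 3.74% of all genes lower and 3.89% higher. The DESeq2 call compares with 0.583% of all genes. It is Cdkn1a, which the paper had already reported as lower in PAMH F3. The list was chosen with earlier results of these data known, so these shares cannot show an excess among p53 targets. The 3 lower genes with an unadjusted p under 0.05 are Cdkn1a, Gadd45a and Phlda3. Cdkn1a, the p21 cell-cycle inhibitor, had 66.0, 73.0 and 63.7 CPM in CNTR and 46.5, 36.9, 33.2 and 35.8 CPM in PAMH F3, with groups that did not overlap. Its log2 fold change was -0.83 (SE 0.13), with an adjusted p of 0.37 in edgeR and of 2.4e-05 in DESeq2 with the same covariates. Over all settings tried the log2 fold change lay between -0.92 and -0.73. The edgeR adjusted p was 0.023 without PAMH F3 replicate 1, 0.045 with no filter on low counts, and above 0.05 in every other edgeR setting. Gadd45a, a stress-induced growth arrest gene, had a log2 fold change of -0.25 (SE 0.06) and an adjusted p of 0.52 in edgeR. It was -0.46 without surrogate variables, -0.60 without CNTR replicate 1, -0.17 without CNTR replicate 2 and -0.07 with CNTR replicate 2 and PAMH F3 replicate 4 both left out and no surrogate variables. CNTR replicate 2 held 110 CPM of it, against 59.5 and 69.7 CPM in the other CNTR libraries. Phlda3, a p53-induced inhibitor of AKT signalling, was also at -0.25 (SE 0.10), with an adjusted p of 0.64 in edgeR, at -0.15 without CNTR replicate 1 and at -0.05 with the same pair of libraries left out. The PAMH F3 and CNTR libraries overlapped for Gadd45a and for Phlda3. Over the whole p53 target list the summed level lay between 1471 and 1618 CPM.

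**Figure D3:**
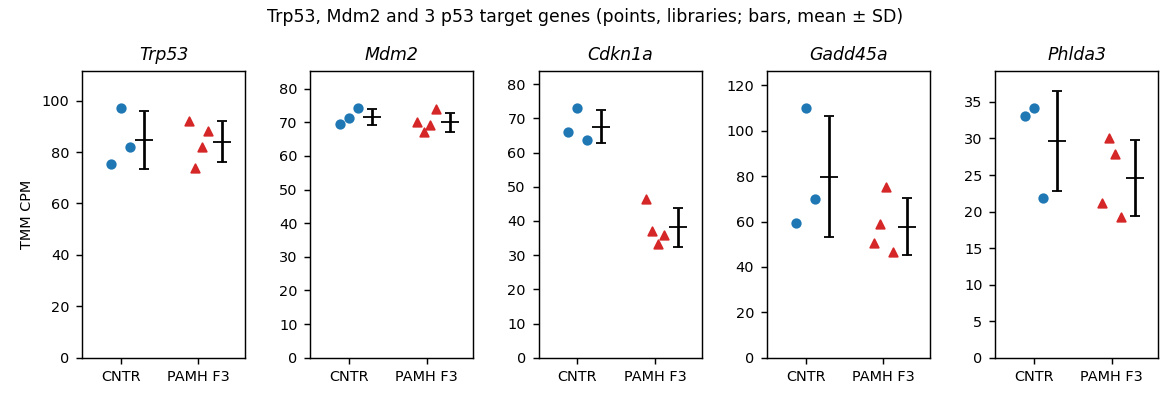
TMM CPM of Trp53, Mdm2, Cdkn1a, Gadd45a and Phlda3 in the 3 CNTR libraries (circles) and the 4 PAMH F3 libraries (triangles), with mean ± SD beside the points and axes from 0. Trp53 and Mdm2 overlap between the groups, and Cdkn1a lies between 63.7 and 73.0 CPM in CNTR and between 33.2 and 46.5 CPM in PAMH F3.

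Homologous recombination was the pathway with the most members, 14, and 12 of them were higher in PAMH F3, with a median log2 fold change of 0.10. Of all genes tested, 52.2% were higher. CNTR replicate 2 was the lowest library for 9 of the 14 genes and PAMH F3 replicate 4 the highest for 10. Brca2, which loads the strand-exchange recombinase onto resected ends and lies on chromosome 5 from 150522630 to 150570329, had 24.9, 19.7 and 23.4 CPM in CNTR and 28.5, 27.3, 24.1 and 34.1 CPM in PAMH F3. PAMH F3 replicate 3 lay below CNTR replicate 1, and these libraries alone made the groups overlap. Leaving out either of them separates the groups by construction, so the separation says nothing more about Brca2. Without CNTR replicate 1 the groups were apart for 15.5% of all genes tested, and without PAMH F3 replicate 3 for 9.06%. The log2 fold change was 0.26 (SE 0.09, 95% interval 0.05 to 0.46), with an edgeR adjusted p of 0.60. Without PAMH F3 replicate 4 it was 0.19, and without both that library and CNTR replicate 2, with no surrogate variables, it was 0.15.

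Rad50, the structural subunit of the complex that holds and trims broken ends, lies on chromosome 11 from 53649519 to 53707319. It had 63.3, 48.2 and 62.1 CPM in CNTR and 68.4, 66.8, 59.8 and 76.4 CPM in PAMH F3. Again PAMH F3 replicate 3 fell within the CNTR range, and CNTR replicate 2 was the lowest library. The log2 fold change was 0.16 (SE 0.06, 95% interval 0.03 to 0.30), with an edgeR adjusted p of 0.60. It was 0.11 without CNTR replicate 2, 0.30 without CNTR replicate 1, and 0.06 without CNTR replicate 2 and PAMH F3 replicate 4 and no surrogate variables.

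The partners of Rad50 in the same complex gave other values. Mre11a, its nuclease, averaged 34.5 ± 2.94 CPM over the 3 CNTR libraries and 36.5 ± 2.60 CPM over the 4 PAMH F3 libraries (mean ± SD). They differed by 0.04 on the log2 scale (SE 0.08), with an edgeR adjusted p of 0.93. Nbn, the subunit that recruits ATM, had 43.7, 32.6 and 43.3 CPM in CNTR and 39.4, 38.6, 35.9 and 41.9 CPM in PAMH F3, with CNTR replicate 2 lowest and the other CNTR libraries highest.

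Brca1 and the proteins that bind it or Brca2 spread widely over the libraries. Brca1 had 26.0, 15.9 and 23.6 CPM in CNTR and 21.6, 24.9, 21.3 and 28.5 CPM in PAMH F3. Bard1, its obligate partner in a ubiquitin ligase, had 7.41, 4.68 and 6.59 CPM in CNTR and 6.18, 7.35, 6.42 and 8.65 CPM in PAMH F3. Palb2, which links Brca1 to Brca2, had 8.11, 5.34 and 7.64 CPM in CNTR and 8.22, 7.38, 7.06 and 10.9 CPM in PAMH F3. For all 3 genes CNTR replicate 2 was the lowest and PAMH F3 replicate 4 the highest library. Rad54l, a motor protein of strand exchange, had the same ends, at 10.1 and 18.47 CPM.

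The remaining recombination genes belong mostly to the paralogs of the recombinase and were steadier. Rad51d had between 27.9 and 28.2 CPM in CNTR and between 27.9 and 29.8 CPM in PAMH F3, and its ratio of 1.07 between the highest and the lowest library was the smallest of the 52. Xrcc3 lay between 8.33 and 9.46 CPM. Rad51b was among the 2 recombination genes lower in PAMH F3, with 13.9, 13.1 and 16.2 CPM in CNTR and 11.7, 14.2, 12.9 and 12.9 CPM in PAMH F3. Rad51c lay between 6.58 and 9.34 CPM and Xrcc2 between 24.8 and 34.5 CPM. Rad52, an annealing protein, lay between 20.5 and 26.1 CPM.

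Of the 5 end joining genes, 4 had log2 fold changes below 0, with a median of -0.07, and of -0.02 without surrogate variables. None of the 5 had an unadjusted p under 0.05 in edgeR. Its Ku subunits, which cap broken ends, were nearly at 1 level in CPM. Xrcc5 had 66.8, 52.99 and 58.3 CPM in CNTR and 60.0, 56.9, 57.6 and 58.9 CPM in PAMH F3. Xrcc6 averaged 60.1 ± 5.29 CPM over the 3 CNTR libraries and 59.4 ± 3.14 CPM over the 4 PAMH F3 libraries (mean ± SD), a difference of -0.05 on the log2 scale (SE 0.07) with an edgeR adjusted p of 0.91. Prkdc, the kinase that Ku recruits, was the 1 gene of the 5 that was higher in PAMH F3, between 40.5 and 56.1 CPM there and between 38.1 and 47.8 CPM in CNTR. Lig4 and its partner Xrcc4, which seal the ends, lay between 15.6 and 19.5 CPM and between 22.4 and 27.5 CPM. CNTR replicate 2 was the lowest library for all 5 genes of this pathway.

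In base excision and the repair of nicks, 4 of 7 genes were higher in PAMH F3, with a median log2 fold change of 0.04. Parp1, the highest of the 52 in mean CPM, senses strand breaks by making poly(ADP-ribose) and had 161, 156 and 175 CPM in CNTR and 177, 173, 165 and 193 CPM in PAMH F3, a difference of 0.10 on the log2 scale (SE 0.05) with an edgeR adjusted p of 0.70. Parp2, a related enzyme, had 57.4, 46.0 and 45.9 CPM in CNTR and 56.2, 52.97, 56.0 and 60.5 CPM in PAMH F3, so that CNTR replicate 1 alone lay within the PAMH F3 range. Lig1, the replicative ligase, had 53.5, 41.0 and 43.8 CPM in CNTR and 47.3, 52.1, 54.0 and 61.7 CPM in PAMH F3, again with CNTR replicate 1 alone inside the PAMH F3 range. Lig3, the ligase of nick repair that also serves mitochondria, and its scaffold Xrcc1 lay between 91.9 and 108 CPM and between 43.2 and 54.3 CPM. Apex1, the main endonuclease at abasic sites, lay between 86.1 and 101 CPM, and Ogg1, the glycosylase of oxidised guanine, between 13.7 and 17.5 CPM. Exons of Apex1 share 61.7% of their bases with a gene on the opposite strand, and those of Lig3 share 25.1%. The strand setting of the count is not given in the sources used here.

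In mismatch repair, Msh6, which reads base mismatches, had 98.3, 69.5 and 81.8 CPM in CNTR and 87.6, 83.2, 81.4 and 94.7 CPM in PAMH F3. The CNTR libraries alone set both ends of its range. Its log2 fold change was -0.02 (SE 0.06), with an edgeR adjusted p of 0.95, and 0.06 without surrogate variables. Msh3, which reads longer loops, lay between 36.7 and 50.7 CPM. Pms2, part of the nuclease that acts next, stayed between 16.1 and 17.9 CPM, with a ratio of 1.11.

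Nucleotide excision repair removes bulky lesions and had log2 fold changes on both sides of 0, with 5 genes higher, 3 lower and a median of 0.01. Ercc2, a helicase of the TFIIH complex, had 43.7, 60.6 and 57.1 CPM in CNTR and 44.5, 46.6, 56.7 and 49.0 CPM in PAMH F3. The fitted log2 fold change was -0.01 (SE 0.08), with an edgeR adjusted p of 0.99, and it was -0.13 without surrogate variables and -0.25 without CNTR replicate 1. Of its exon bases, 42.7% lie in genes of the opposite strand. Ercc3, the other TFIIH helicase, lay between 46.1 and 54.2 CPM. The damage readers Xpc and Xpa lay between 41.4 and 50.05 CPM and between 9.07 and 10.8 CPM. The nuclease genes Ercc1, Ercc4 and Ercc5 lay between 22.6 and 28.4, between 24.0 and 29.0 and between 46.2 and 54.7 CPM. Ercc6, which couples the pathway to stalled transcription, had 38.3, 38.1 and 42.8 CPM in CNTR and 46.1, 41.7, 38.1 and 50.2 CPM in PAMH F3.

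The Fanconi anaemia genes, whose products unhook crosslinks between strands, held the widest member. Fancd2, the subunit that is ubiquitinated at the crosslink, had 14.6, 8.61 and 13.1 CPM in CNTR and 11.8, 13.8, 12.4 and 18.8 CPM in PAMH F3, a ratio of 2.19 between PAMH F3 replicate 4 and CNTR replicate 2. Its partner Fanci had 12.7, 7.59 and 10.8 CPM in CNTR and 10.4, 11.5, 11.2 and 14.4 CPM in PAMH F3, with the same libraries at the ends. Fanca and Fancc, of the core complex, were steadier. Fanca lay between 19.99 and 30.4 CPM. Fancc averaged 34.6 ± 0.41 CPM over the 3 CNTR libraries and 33.8 ± 2.72 CPM over the 4 PAMH F3 libraries (mean ± SD), with a log2 fold change of -0.04 (SE 0.08) and an edgeR adjusted p of 0.93.

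The RecQ helicases unwind recombination intermediates. Blm had 20.6, 12.4 and 15.5 CPM in CNTR and 16.49, 14.9, 14.4 and 19.3 CPM in PAMH F3, with all PAMH F3 libraries inside the CNTR range. The fitted log2 fold change was -0.11 (SE 0.10), with an edgeR adjusted p of 0.82, and 0.01 without surrogate variables. Wrn lay between 31.1 and 43.6 CPM.

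Set side by side per kilobase of all exons joined, Apex1 stood highest at 64.7 CPM per kilobase, followed by Parp1 at 32.4, Xrcc5 at 23.0, Trp53 at 20.9 and Msh6 at 19.6, and Palb2 stood lowest at 1.06. Per kilobase of the median annotated transcript, the highest member of a pathway was the same in only 2 of the 8 pathways, Msh6 and Fancc. Parp1 was then the highest at 309 and Palb2 was at 3.05. The order of levels between genes depends on the length used.

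The libraries took different places in the order of levels. PAMH F3 replicate 4 was the highest library for 29 of the 52 genes (55.8%, against 18.1% of all genes tested) and the lowest for 0. CNTR replicate 2 was the lowest for 28 (53.8%, against 22.1% of all genes). For 18 genes both held. Among the 10 genes with the widest spread, with a ratio of at least 1.70, CNTR replicate 2 was the lowest library for 8 and PAMH F3 replicate 4 the highest for 7. The 52 genes summed to 2233, 2036 and 2213 CPM in CNTR and to 2247, 2194, 2127 and 2469 CPM in PAMH F3, which gives 2160 ± 108 CPM (SD, n = 3) and 2259 ± 148 CPM (SD, n = 4). The sum was highest in PAMH F3 replicate 4 for 7 of the 8 pathways, all but end joining, and lowest in CNTR replicate 2 for 6 of the 8, all but signalling and nucleotide excision repair.

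**Figure D4:**
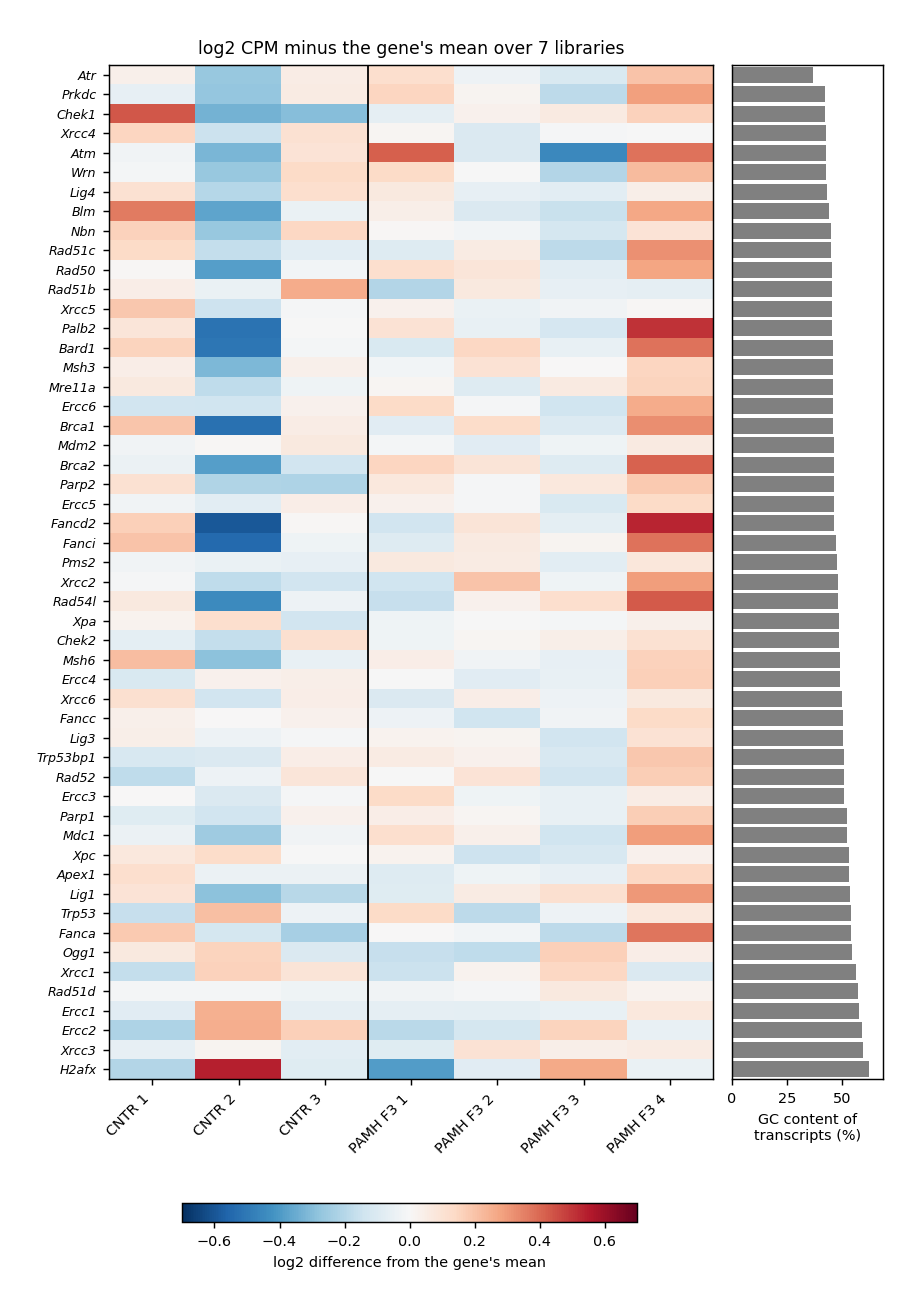
Log2 CPM of each gene in each library minus the gene's mean over the 7 libraries, with genes ordered by the GC content of their transcripts (right, in percent). CNTR replicate 2 is low for most genes of lower GC content and high for Ercc1, Ercc2 and H2afx at the bottom, and PAMH F3 replicate 4 is above the mean for most genes.

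The level in CNTR replicate 2 relative to the other CNTR libraries rose with GC content across the genes. Across the 52 genes, GC content and the log2 difference of CNTR replicate 2 from the other CNTR libraries had a Spearman rho of 0.71, and of 0.56 across all genes tested. All these points share the same 3 libraries, and genes are not independent replicates. Of the 26 genes with the lower GC content (36.8% to 47.9%), CNTR replicate 2 was the lowest CNTR library for 23 and the highest for 0, with a median difference of -0.31. Of the 26 genes with the higher GC content (48.1% to 62.3%), it was the lowest for 11 and the highest for 9, with a median difference of -0.04. The 52 genes had a median GC content of 48.0% against 50.2% over all genes tested. With offsets that remove each library's trend with GC content and length, 1 of the 52 genes, Brca2, had an unadjusted p under 0.05 in edgeR, against 4.37% of all genes. The same count without offsets or surrogate variables was also 1, Brca2, against 3.89% of all genes. The part of GC content in these differences between libraries was not tested further.

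**Figure D5:**
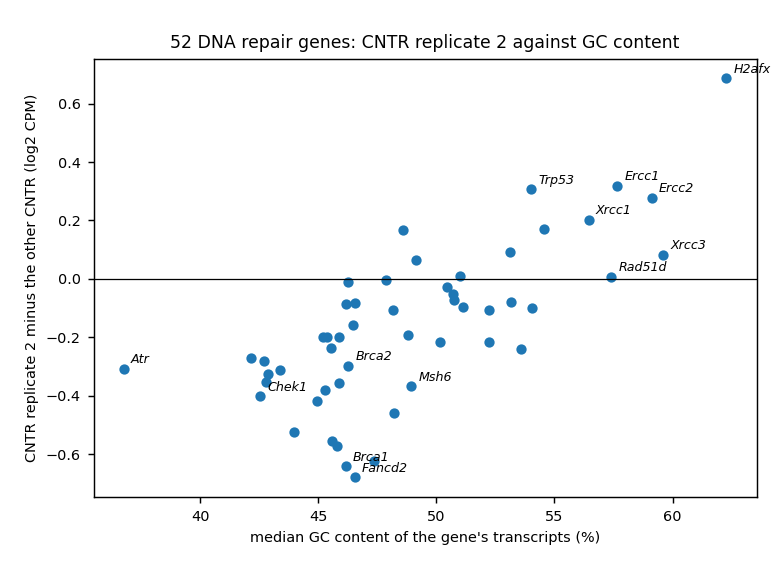
Log2 difference in CPM between CNTR replicate 2 and the other CNTR libraries for each of the 52 genes, against the median GC content of the gene's transcripts in percent. Fancd2 and Brca1 lie lowest, at a GC content near 46%, and H2afx lies highest at 62.3%.

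Genes of cell division moved with the same libraries. The 20 genes of the proliferation list summed to 1198, 786 and 970 CPM in CNTR and to 954, 1121, 1060 and 1247 CPM in PAMH F3, lowest in CNTR replicate 2 and highest in PAMH F3 replicate 4. Of these 20, neither edgeR nor DESeq2 with surrogate variables called any, and none had an unadjusted p under 0.05, with 17 higher in PAMH F3 and 3 lower. Their part in the levels of the repair genes was not tested. The oocyte list was lowest in PAMH F3 replicate 1, at 303 CPM, and highest in PAMH F3 replicate 4, at 489 CPM. PAMH F3 replicate 4 also had the lowest sums of the oviduct list, at 2680 CPM, and of the adipocyte list, at 99.8 CPM. The part of these lists in the levels was not tested either.

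Of 87 other repair genes, not counted among the 52, edgeR and DESeq2 with surrogate variables called none, 49 were higher in PAMH F3 and 38 lower, with a median log2 fold change of 0.03. Poli, a translesion polymerase that copies past damaged bases, was the 1 gene among them with an unadjusted p under 0.05, a share below the 7.63% of all genes. It had 18.8, 16.4 and 17.1 CPM in CNTR and 20.3, 21.5, 22.3 and 20.8 CPM in PAMH F3. The groups did not overlap for this gene, as for 2 of the 87 genes and for 4.25% of all genes. Its log2 fold change was 0.26 (SE 0.08), with an edgeR adjusted p of 0.58. A list of 12 germ-cell genes held genes of meiotic recombination and cohesion and Trp63, the p53 relative that acts in damaged oocytes. Of these 12, 10 passed the filter, and none was called by either tool or had an unadjusted p under 0.05 in edgeR.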

How the data were processed

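RNA-seq counts of ovaries from 3 CNTR and 4 PAMH F3 mice were analysed. The submitters' processing notes name bcl2fastq 2.17.1.14, STAR 2.5.3a, HTSeq 0.6.1p1 and the mm10 build. The authors deposited raw counts per Ensembl gene of uniquely aligned reads, without normalization. The annotation release and the strand setting are not given in the sources used here. The 5 summary lines per library were left out of every test; they put 5.82% to 7.37% of the alignments outside genes and 37.7% to 40.7% as not unique. Symbols, lengths and GC content came from GENCODE M21 (55394 of 55487 identifiers matched).

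Genes kept by filterByExpr (minimum count 10) were tested in edgeR 4.0.16 (R 4.3.3) with TMM factors, its quasi-likelihood F test and 2 surrogate variables from svaseq (sva 3.50.0), with Benjamini-Hochberg adjustment over all 18779 genes. SEs were taken as the absolute log2 fold change divided by the square root of F. P values set the difference between the groups against the variation left among these libraries after any covariates in the fit. DESeq2 1.42.0, other covariates, filters and scalings, and leaving out each library served as alternatives. The members and lists were chosen with earlier results of these data known. Fitted values are given for members with an unadjusted p under 0.05 or with groups that did not overlap, for the highest member per kilobase of median transcript length in each pathway, and for up to 3 genes of each other list.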

Additional observations from a re-analysis of the deposited data

Results flagged for a closer look

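Within the 4 PAMH F3 libraries, a single library lay apart from the others for 2 of the 52 genes by Dixon's criterion, which chance meets in about 1 of 20 groups. Pms2, a mismatch repair gene, had 16.1 CPM in PAMH F3 replicate 3 and between 17.6 and 17.9 CPM in the other PAMH F3 libraries. Ercc1, a nuclease subunit of nucleotide excision repair, had 25.1 CPM in PAMH F3 replicate 4 and between 22.8 and 23.0 CPM in the others. The CNTR libraries held between 16.2 and 16.6 CPM of Pms2, just above the low PAMH F3 value, and between 22.6 and 28.4 CPM of Ercc1, which covers the high one.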

How the results depend on the processing

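The count of genes called among the 52 was 0 under every setting tried. Over all genes, edgeR's count of 0 rose to 8 with no filter on low counts, DESeq2 called 101 with the same surrogate variables and 6 with none, and leaving out a library gave 0 to 37, of which 37 came without CNTR replicate 1 and 31 without replicate 1 of PAMH F3. Members with an unadjusted p under 0.05 numbered 1 with no surrogate variables, with GC and length offsets and in DESeq2 with or without surrogate variables, 0 with the replicate block, 0 with CNTR replicate 2 and PAMH F3 replicate 4 both left out, a setting chosen after seeing the data, and 0 to 12 when a library was left out. Members whose groups did not overlap then numbered 1 to 5, against 6.09% to 15.5% of all genes. The median log2 fold change of the members lay between 0.01 and 0.08 when a library was left out. Deviations from the group means correlated at 0.10, 0.10 and -0.25 between same-numbered libraries. Between libraries of different numbers they correlated at between -0.24 and 0.28. These few correlations showed no pairing by replicate number, and they cannot exclude it. The block on the replicate number left 442 of all genes under an unadjusted p of 0.05, against 730 without it, and it moved Msh6 to 0.035.

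Some log2 fold changes near 0 changed sign. Msh6 was at 0.0624 with no surrogate variables, at 0.056 with 1, at 0.0619 in DESeq2 without them, at 0.047 with GC and length offsets, and between -0.078 and 0.20 when a library was left out. Blm was at 0.01 with no surrogate variables in edgeR (0.0103) and in DESeq2 (0.0099), and between -0.21 and 0.21 when a library was left out. Ercc2 was at 0.037 with the offsets and between -0.25 and 0.049 when a library was left out. Mre11a was at -0.018 with CNTR replicate 2 and PAMH F3 replicate 4 both left out, and between -0.0033 and 0.14 when a library was left out. Xrcc6 lay between -0.093 and 0.045 when a library was left out. The cause of these changes was not tested. Of the 8 pathways, 2 kept their highest member when levels were taken per kilobase of all exons joined. With 7 libraries, 35 divisions into 3 and 4 exist. The lowest count of a member in a library was 156.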

Other observations

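Leukocyte, adipocyte and erythroid marker genes were read beside the repair genes as lists of other cells that dissected tissue can hold. The 10 leukocyte genes summed to between 107 and 115 CPM in CNTR and between 93.3 and 137 CPM in PAMH F3. The 5 adipocyte genes summed to 769, 303 and 247 CPM in CNTR and to 213, 424, 556 and 99.8 CPM in PAMH F3, so that CNTR replicate 1 alone lay above every PAMH F3 library. The 5 erythroid genes summed to between 15.6 and 50.04 CPM in CNTR and between 17.3 and 36.6 CPM in PAMH F3. All adipocyte and erythroid genes were lower in PAMH F3 in edgeR with surrogate variables. Their median log2 fold changes were -0.60 and -0.32, and -0.36 and -0.41 without surrogate variables.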
